A study of Mus musculus with 4 samples.

Results

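Muscle oxygen and energy supply was followed through 9 genes: Mb, Ckm, Ckmt2, Eno3, Pygm, Pgam2, Fabp3, Phkg1 and Ampd1. The whole array named 18193 genes. A gene was read on every probe set whose platform annotation gives 1 symbol only, and the 9 genes had 13 of the 45101 probe sets. The arrays carried total RNA of mouse eye tissue labelled as retina. Control animals were set against transgenic animals with myocilin in the aqueous humor, the fluid in the front of the eye. Myocilin is a glycoprotein that cells secrete. Each group had 2 arrays. Control array 2 is described as a technical replicate of control array 1, and both were averaged into 1 control sample beside 2 transgenic samples. Strain, age, sex and the promoter of the transgene are not stated in the labels. They also do not say whether separate mice were used for each transgenic array. P-values of the main fit rest on the spread between the 2 transgenic arrays, drawn towards that of other probe sets of like intensity. The 1 control sample adds no spread of its own, and the spread used may be technical.

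Striated muscle stores oxygen on myoglobin and holds energy in phosphocreatine, glycogen and fat. Creatine kinases move phosphate between creatine and ATP, in the cytosol and at the mitochondrion. Glycogen phosphorylase, which is switched on by phosphorylase kinase, releases glucose units from glycogen, and muscle forms of the glycolytic enzymes burn them. Fatty acid binding protein carries fat to the mitochondria, and AMP deaminase clears the AMP that builds up when ATP is used fast. Muscles that move the eye and the lids lie next to the eyeball and are known for their rich supply of mitochondria and blood.

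Promoter sequence is shown for the 3 genes with the largest changes between the groups. RefSeq promoters on GRCm38.p6 matched 8 of the 9 genes, in 10 windows, and the 250 bases before each start were searched. Mb encodes myoglobin, Ckm the cytosolic muscle creatine kinase and Pgam2 the muscle phosphoglycerate mutase. Mb had 3 windows, of which the middle one on the chromosome is printed. The printed windows are chr15:77022788-77023037 on the minus strand, chr7:19410844-19411093 on the plus strand and chr11:5803797-5804046 on the minus strand. Capitals mark matches to the E-box CANNTG, which myogenic factors such as MyoD can bind, to the consensus of MEF2, a muscle transcription factor, and to TATAA.
Mb: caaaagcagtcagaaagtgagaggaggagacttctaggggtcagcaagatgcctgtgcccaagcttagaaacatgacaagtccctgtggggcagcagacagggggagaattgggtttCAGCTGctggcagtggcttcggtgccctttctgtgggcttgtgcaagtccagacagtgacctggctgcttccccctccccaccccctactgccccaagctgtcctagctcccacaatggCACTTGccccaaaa
Ckm: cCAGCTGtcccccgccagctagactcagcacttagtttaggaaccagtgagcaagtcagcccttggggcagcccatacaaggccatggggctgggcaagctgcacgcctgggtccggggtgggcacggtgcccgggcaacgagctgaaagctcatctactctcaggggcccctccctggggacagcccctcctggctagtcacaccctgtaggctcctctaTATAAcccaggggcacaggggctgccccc
Pgam2: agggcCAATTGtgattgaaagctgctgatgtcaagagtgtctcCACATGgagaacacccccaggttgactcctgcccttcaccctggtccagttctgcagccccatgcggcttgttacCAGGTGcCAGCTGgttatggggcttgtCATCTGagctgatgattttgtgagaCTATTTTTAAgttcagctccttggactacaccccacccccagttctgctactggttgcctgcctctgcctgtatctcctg

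An E-box match was present in 10 of 10 windows of these genes, against 66.2% of all 32851 RefSeq promoter windows of the same length. The printed Mb window overlaps another Mb window, and its E-box matches are counted in both. By gene, 8 of 8 had a match, against 69.3% of 27025 genes. Both strands were searched. The Pgam2 window held 5 E-box matches and 1 MEF2 match, and the latter began 80 bases before the transcription start. A MEF2 match was found in 2.92% of all windows, and among these genes in the Pgam2 window alone. TATAA was found in the Ckm window, 29 bases before the start, and in 22.8% of all windows. CATTCC, the core of the MCAT element read by TEAD factors, was found in 1 of the 10 windows, that of the muscle enolase gene Eno3, and in 12.6% of all windows. No window matched the CArG box of serum response factor, which 1.47% of all windows held. These matches describe letters and say nothing of binding.

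On the arrays, the myoglobin signal was about double in the transgenic samples, and it was the only one of the 13 probe sets that passed the test. The brightest probe sets of Ckm, Ckmt2, Eno3, Pgam2 and Fabp3 were also higher on both transgenic arrays than on both control arrays, by smaller amounts that did not pass. Those of Pygm overlapped between the groups, and Phkg1 and Ampd1 gave dim signals. Changes are given as differences in log2(signal + 16), transgenic minus control, which understate the change of dim probe sets. Of the 13 probe sets, 9 had a mean above the 40th percentile of the array, a signal of about 30.0, and were tested together with 27022 probe sets in all. All 9 also had control means above that level, so none entered the test through the transgenic arrays alone. On the log2 scale, the transgenic means of the dimmer Ckm and Fabp3 probe sets were below it. These were tested only through the control arrays, and their values have that limit. Of the 9, 1 had an adjusted p under 0.05 in limma (two-sided, Benjamini-Hochberg), against 0.0777% of all probe sets tested. Over the whole array 15 probe sets passed as higher and 6 as lower, while 20 and 19 did after quantile normalization and 142 and 35 after median centring. At an unadjusted p under 0.05, 5 of the 9 were higher, against 4.14% of all. Both transgenic arrays lay above both control arrays for 6 of the 9, against 21.1% of all.

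**Figure D1:**
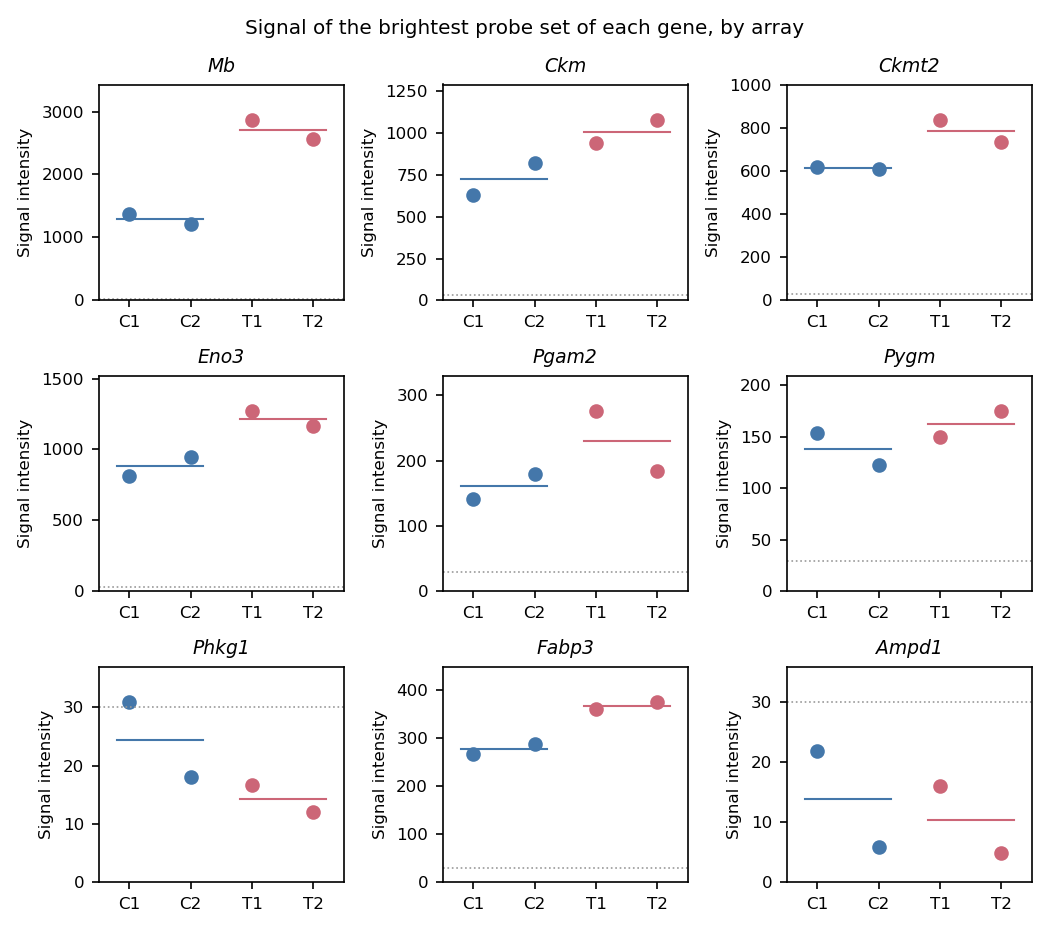
Signal intensity (linear axis from 0, with its own range in each panel) of the brightest probe set of each of the 9 genes on control arrays 1 and 2 (C1, C2, blue) and transgenic arrays 1 and 2 (T1, T2, red), with the mean of each group as a line and the filter level of about 30.0 as a dotted line. Mb stood at 1376 and 1214 in control and at 2858 and 2567 in transgenic arrays, while Phkg1 and Ampd1 lay around or under the filter level.

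Myoglobin, the oxygen-binding protein of striated muscle, was measured by 2 probe sets. On the bright one, the Mb signal was 1376 and 1214 in control arrays and 2858 and 2567 in transgenic arrays. The groups were far apart, since the lower transgenic array was above the higher control array by more than either pair differed within itself. The mean rose from 1295 in control to 2713 ± 205 (SD, n = 2), a fold of 2.09. On the log2 scale Mb rose by 1.06 ± 0.11 (SE; 95% interval 0.82 to 1.29), with a limma adjusted p of 0.00581. It ranked 3 by p among all 27022 probe sets tested, and 15 of 12722 tested genes had a larger change. The 2 control arrays differed by 0.18 on the same scale. Transgenic array 1 was 1.14 and array 2 was 0.98 above the control mean, so both carried the change. Without the filter on dim probe sets the adjusted p of Mb was 0.656 (unadjusted 9.81e-05), and without the intensity trend in the moderation it was 0.905 (unadjusted 0.0031), so the call ended in both settings while the change stayed at 1.06. The second Mb probe set was dim, with signals of 6.27 and 7.91 in control and 6.44 and 11.1 in transgenic arrays, below the filter and not tested. 

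Creatine kinases were represented by a cytosolic and a mitochondrial muscle form. The bright probe set of Ckm, which encodes the cytosolic form, read 631 and 819 in control arrays and 943 and 1075 in transgenic arrays. Its groups did not overlap, although the control arrays differed by 0.37 on the log2 scale. The change was 0.48 ± 0.12 (log2, SE; 95% interval 0.21 to 0.75) and did not pass (limma adjusted p = 0.359, unadjusted 0.00249). It was 0.29 without control array 1 and 0.66 without control array 2. A second Ckm probe set near the filter level gave 48.5 and 23.5 in control and 29.6 and 24.8 in transgenic arrays, with groups that overlapped and a change of −0.23 ± 0.38. Ckmt2, the form that sits between the mitochondrial membranes, had signals of 616 and 607 in control and 833 and 733 in transgenic arrays. Its control arrays nearly coincided, and both transgenic arrays lay above them. The Ckmt2 change was 0.35 ± 0.13 (95% interval 0.07 to 0.63; adjusted p = 0.601, unadjusted 0.0196).

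The muscle forms of 2 late glycolytic enzymes came next. Eno3, the muscle enolase, gave 811 and 950 in control arrays and 1268 and 1168 in transgenic arrays. These groups did not overlap, and the change was 0.46 ± 0.11 (log2, SE; 95% interval 0.21 to 0.71) with a limma adjusted p of 0.307 (unadjusted 0.00173). Pgam2, the muscle phosphoglycerate mutase, gave 141 and 180 in control and 275 and 185 in transgenic arrays. Its size rested on transgenic array 1, since array 2 was only just above the higher control array. The Pgam2 change was 0.46 ± 0.22 (95% interval −0.02 to 0.95; adjusted p = 0.729), at 0.73 with transgenic array 1 alone and 0.20 with array 2 alone. Without control array 1 it was 0.30.

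The genes of glycogen breakdown came next, and none of their probe sets was higher on both transgenic arrays. Pygm, the muscle glycogen phosphorylase, stood at 154 and 123 in control and at 150 and 175 in transgenic arrays, with overlapping groups. Its change was 0.21 ± 0.20 (95% interval −0.22 to 0.64; limma adjusted p = 0.909), and this interval holds the value of Ckm. Single arrays moved it, to 0.07 without control array 2, 0.35 without control array 1 and 0.11 without transgenic array 2. Phkg1, the catalytic subunit of muscle phosphorylase kinase, was dim on both of its probe sets. The brighter gave 30.8 and 18.0 in control and 16.7 and 12.1 in transgenic arrays, and the other gave 4.07 and 4.30 in control and 1.09 and 3.49 in transgenic arrays. Both were lower on both transgenic arrays, as were 23.6% of all probe sets tested, but they lay below the filter and were not tested.

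Fabp3, the fatty acid binding protein of heart and skeletal muscle, gave 267 and 289 in control and 361 and 375 in transgenic arrays on its bright probe set. Both pairs of arrays were close within themselves, and the change was 0.38 ± 0.15 (log2, SE; 95% interval 0.07 to 0.70; limma adjusted p = 0.614, unadjusted 0.0223). A dim second Fabp3 probe set gave 36.3 and 39.8 in control and 48.0 and 16.8 in transgenic arrays. There the transgenic arrays lay on either side of the control arrays, with a change of −0.24 ± 0.44. This was 0.24 without transgenic array 2 and −0.72 without transgenic array 1. Ampd1, the muscle AMP deaminase, gave 21.9 and 5.96 in control and 16.1 and 4.87 in transgenic arrays. It was below the filter, and each group had 1 higher and 1 lower array.

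**Figure D2:**
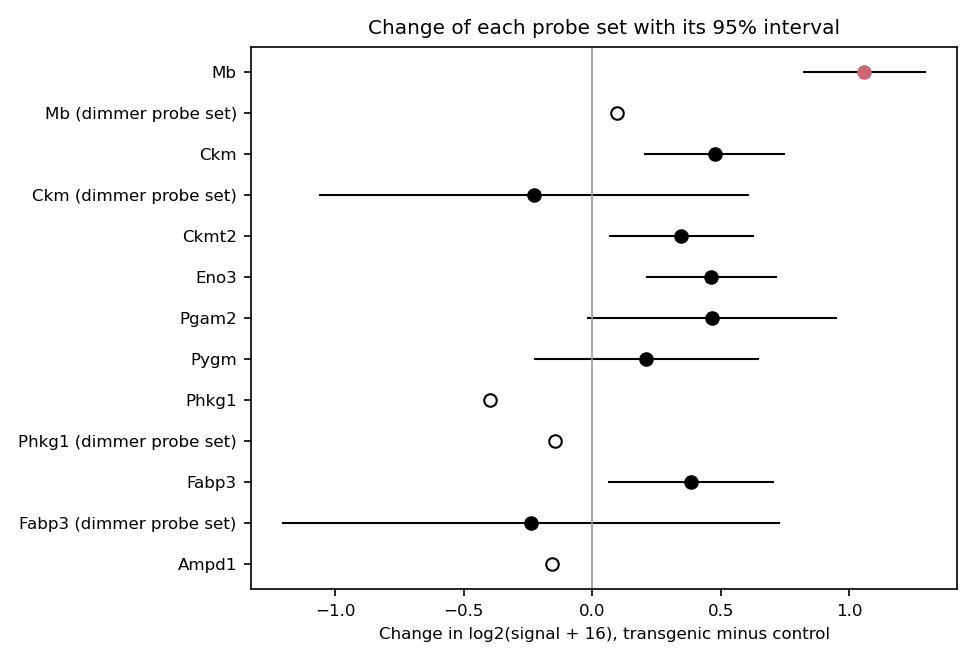
Change in log2(signal + 16), transgenic minus control (x axis), for the 13 probe sets of the 9 genes, with the 95% interval of the limma fit as a line where the probe set was tested (filled points) and none where it lay below the filter (open points). Mb, in red, passed at an adjusted p under 0.05, with an interval of 0.82 to 1.29, and the dimmer probe sets of Ckm and Fabp3 had the widest intervals.

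Over the 7 tested genes, each taken by its brightest probe set, the median change was 0.46, against −0.01 over all 12722 tested genes. It was 0.44 with transgenic array 1 alone and 0.40 with array 2 alone. All 7 were above 0, as were 48.1% of all tested genes, and 2 of the 9 genes, Phkg1 and Ampd1, were not tested. The changes were unequal among them, from 0.21 for Pygm to 1.06 for Mb. The share of tested genes with a smaller change was 83.9% for Pygm, between 94.1% and 97.8% for Ckmt2, Fabp3, Eno3, Pgam2 and Ckm, and 99.9% for Mb.

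**Figure D3:**
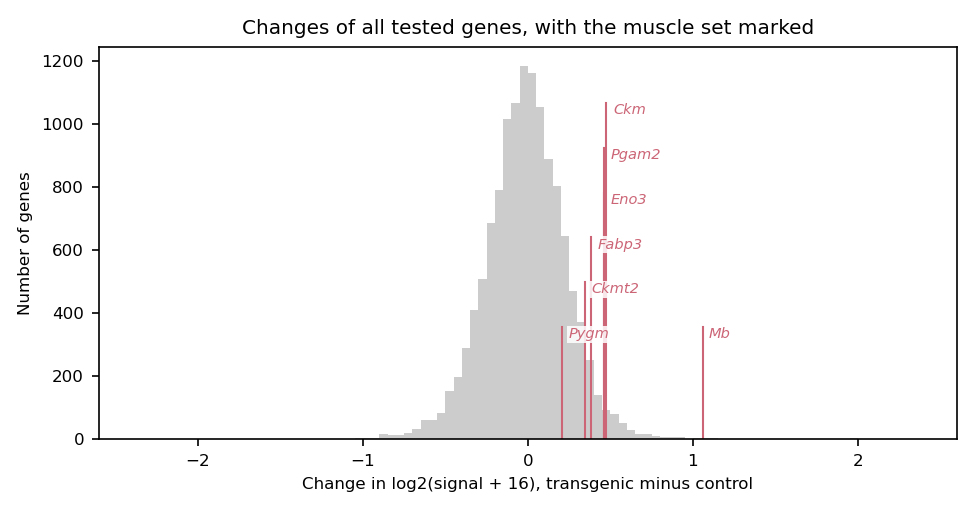
Histogram of the change in log2(signal + 16), transgenic minus control (x axis), of the 12722 tested genes (y axis: number of genes in bins of equal width), with the 7 tested muscle supply genes as red lines whose height has no meaning. The lines stand right of the centre of the histogram, from 0.21 for Pygm to 1.06 for Mb.

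Most of these genes belong to families with a paralog that other tissues use, and the paralogs were measured on the same arrays. Of 14 paralogs considered, 13 were matched to a probe set and 12 were tested. Eno1 was the unmatched paralog, so Eno3 was set beside Eno2 alone. None of the 12 passed in limma (0 of 12), and their median change was 0.04. At an unadjusted p under 0.05 in limma, 3 were higher, namely Fabp4, Fabp5 and Cygb, against 4.14% of all tested probe sets. Ckb, the brain-type creatine kinase, stood at 0.18 ± 0.11 (log2, SE) beside 0.48 for Ckm. Ckmt1, the ubiquitous mitochondrial form, stood at −0.17 ± 0.12 beside 0.35 for Ckmt2, and its signals were lower on both transgenic arrays, at 829 and 873 in control against 751 and 753. Among glycolytic paralogs, Pgam1 stood at 0.14 ± 0.11 and the neuronal enolase Eno2 at 0.06 ± 0.21. The brain and liver glycogen phosphorylases Pygb and Pygl stood at −0.08 ± 0.19 and −0.13 ± 0.13 beside 0.21 for Pygm. None of these 4 passed. Phkg2 stood at −0.02 ± 0.19 beside −0.40 for the brighter probe set of Phkg1, which was not tested. Ampd2 stood at 0.02 ± 0.15 and Ampd3 at −0.41 ± 0.28, beside −0.16 for Ampd1, also not tested. Fabp4 of fat cells and vessels stood at 0.59 ± 0.18 and Fabp5 of epithelia at 0.28 ± 0.09 beside 0.38 for Fabp3. Cygb, the cytoglobin of fibroblasts, stood at 0.43 ± 0.18, and the neuronal globin Ngb was below the filter. In 9 pairs both genes were tested, and the value of the muscle gene was the larger in 8 of them, all but that of Fabp3 and Fabp4. The difference between a gene and its paralog was not tested.

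**Figure D4:**
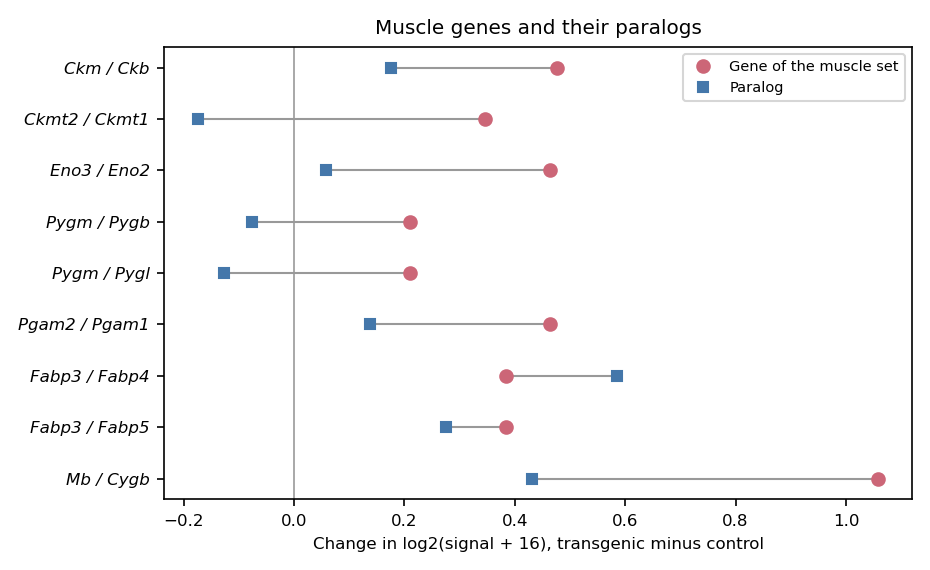
Change in log2(signal + 16), transgenic minus control (x axis), of the tested muscle supply genes (red circles) and of their tested paralogs (blue squares), 1 pair in each row. The muscle gene lies to the right in every row except that of Fabp3 (0.38) and Fabp4 (0.59).

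In wider lists of the same pathways, no gene passed in limma, and the medians of the genes outside the 9 lay between −0.11 and 0.15. Every gene of these lists at an unadjusted p under 0.05 was higher, as were 4.14% of all tested probe sets. Of all tested genes, 48.1% were above 0. Creatine kinases and creatine supply had 0 of 7 tested genes past the threshold and 2 at an unadjusted p under 0.05, which were Ckm and Ckmt2. The median was 0.15 with them and −0.11 over the other 5 genes, of which 2 were above 0. Slc6a8, the creatine transporter, stood lowest there at −0.32 ± 0.15 (log2, SE). Of 14 glycogen genes 0 passed (2 unadjusted), with a median of 0.05, and 0.04 without Pygm. Ppp1r3c, which targets a phosphatase to glycogen, stood at 0.40 ± 0.10, Pgm1, a phosphoglucomutase, at 0.38 ± 0.17 and Phka2, a phosphorylase kinase subunit, at −0.28 ± 0.22. Gys1, the muscle glycogen synthase, had signals of 48.1 and 13.9 in control and 44.6 and 56.4 in transgenic arrays. Its groups overlapped and its control mean was below the filter, so it was tested only through the transgenic arrays, and its value of 0.60 ± 0.34 has that limit.

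Of 18 glycolysis genes 0 passed (5 unadjusted), with 16 above 0, against 48.1% of all tested genes, and a median of 0.16. Higher at an unadjusted p under 0.05 were 4.14% of all tested probe sets. Over the 16 other than Eno3 and Pgam2 the median was 0.15, with 14 above 0. The aldolase gene Aldoc stood at 0.45 ± 0.10 (log2, SE) and the insulin-responsive glucose transporter gene Slc2a4 at 0.37 ± 0.21. Aldoa, another aldolase gene, was lower at 0.20 ± 0.11, and its groups overlapped. Of 19 genes of fatty acid uptake and oxidation 0 passed (3 unadjusted), with 12 above 0 and a median of 0.10, and 0.08 without Fabp3. The highest among them were the fatty acid binding proteins, followed by Etfb, an electron transfer flavoprotein subunit, at 0.19 ± 0.11. In the purine nucleotide cycle and adenylate list 0 of 6 passed (0 unadjusted), with a median of −0.06. Its largest changes besides Ampd3 were Adssl1 at 0.17 ± 0.26, Ak3 at −0.16 ± 0.12 and Adsl at −0.14 ± 0.17.

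Single arrays moved several of these small medians. That of the creatine list was 0.03 without control array 1 and 0.06 without transgenic array 1. The glycogen median was 0.03 without control array 2 and 0.14 without transgenic array 2, and the fatty acid median was 0.04 and 0.06 without control array 1 and transgenic array 2. The purine median was −0.12 without control array 1, −0.16 without transgenic array 1 and −0.01 without transgenic array 2.

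Muscle forms of cytochrome c oxidase subunits had the highest values among 8 tested mitochondrial genes, although none passed in limma. The median of the list was 0.26, with 4 genes higher at an unadjusted p under 0.05, against 4.14% of all tested probe sets. Cox6a2, the heart and muscle form of subunit VIa, gave 279 and 315 in control and 532 and 478 in transgenic arrays. Its groups did not overlap, and the change was 0.74 ± 0.14 (log2, SE; adjusted p = 0.187). Cox8b and Cox7a1, muscle forms of further subunits of that enzyme, stood at 0.50 ± 0.10 (adjusted p = 0.217) and 0.37 ± 0.16 (adjusted p = 0.679), beside 0.35 for Ckmt2. The other 4 genes of the list lay between −0.03 and 0.17, among them Slc25a4, the brightest of the list, at 0.09 ± 0.09.

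Regulators of muscle and mitochondrial genes went in both directions. Of 16 tested, 7 were above and 9 below 0, while 48.1% of all tested genes were above 0. The median was −0.08, at −0.04 without transgenic array 2 and −0.11 without transgenic array 1. On both transgenic arrays 4 of the 16 were higher and 8 lower, against 21.1% and 23.6% of all tested probe sets. By limma 0 passed, and 1 was higher at an unadjusted p under 0.05, against 4.14% of all tested probe sets. That 1 was Myf6, a myogenic factor of mature fibres, at 0.55 ± 0.25 (log2, SE). Myod1, another myogenic factor, stood at −0.61 ± 0.38, Esrrg, a nuclear receptor of oxidative muscle, at −0.47 ± 0.29 and Six4 at 0.39 ± 0.31. Signals of Myod1 were low, at 50.2 and 41.3 in control and 29.0 and 20.3 in transgenic arrays, and its transgenic mean was below the filter, so it was tested only through the control arrays.

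**Figure D5:**
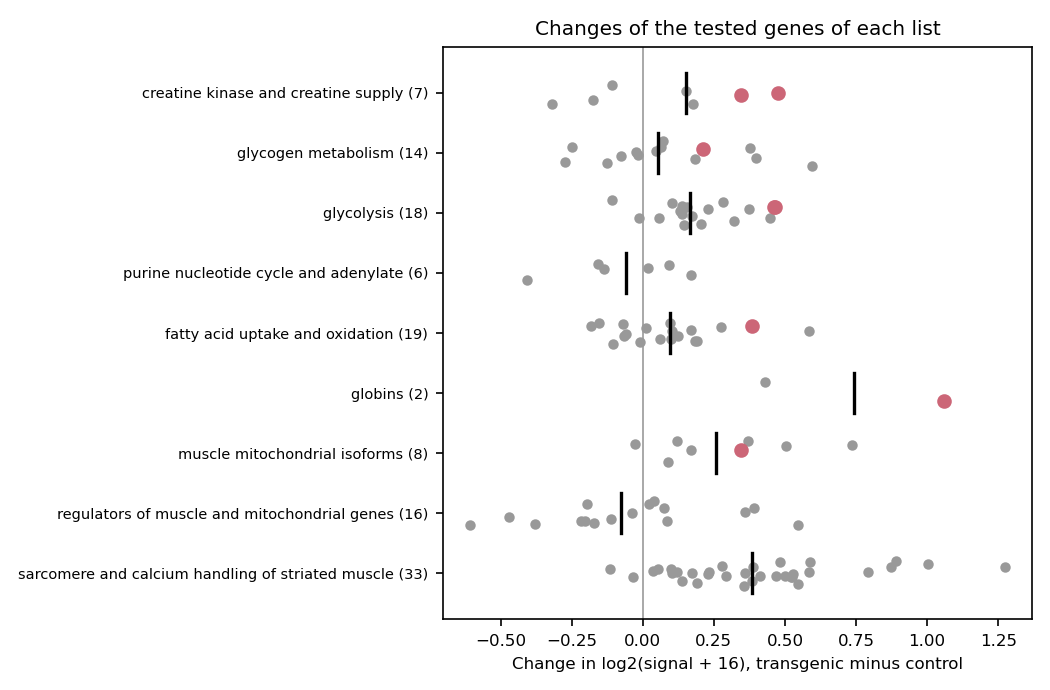
Change in log2(signal + 16), transgenic minus control (x axis), of each tested gene of 9 lists (number of tested genes in brackets), with the muscle supply genes in red, other genes in grey and the median of each list as a black bar. The points are spread vertically only to separate them. The medians run from −0.08 for the regulators to 0.74 for the 2 tested globins, and that of the sarcomere list is 0.38.

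Among 33 tested genes of the sarcomere and its calcium handling, 4 passed in limma, against 0.0777% of all probe sets. All 4 rose: Sln, a regulator of the calcium pump, by 1.27, the myosin light chain genes Myl1 and Mylpf by 1.00 and 0.87, and Smpx, a small muscle protein gene, by 0.89. Of the 33, 31 were above 0, against 48.1% of all tested genes, and 25 were higher on both transgenic arrays, against 22.8%. The median of the 33 was 0.38. Myl3, Myom2 and Cav3 of the same list were below the filter and not tested, with changes of −0.68, −0.62 and −0.22. Myl3 and Myom2 were lower on both transgenic arrays, as were 23.6% of all probe sets tested. Of 15 skeletal muscle markers, 14 had a probe set, 11 of these were higher on both transgenic arrays and 1, Myh4, was lower on both. All 14 are also among the 33 genes above, on the same probe sets, so these counts are not separate. Their summed signal was 15224 and 15406 in control and 22282 and 22529 in transgenic arrays. Myl1 and Mylpf made up 65.4% of the difference between the group means. Without this pair, picked out after the values were seen, the sum of the other 12 markers was 10324 and 10526 in control and 12815 and 12945 in transgenic arrays. In bulk tissue, more muscle fibres in a sample and more RNA per fibre cannot be told apart. The part of muscle content in the changes of the supply genes was not tested.

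The supply genes were also expressed relative to the median change of the 33 sarcomere genes on each array. On that scale Mb stood at 0.74 and 0.61 on the transgenic arrays, with its controls at 0.09 and −0.09. Of the 33, 1 gene, Sln, had a larger change than Mb. Ckm stood at −0.02 and 0.20 on the transgenic arrays, with its control arrays at −0.19 and 0.19. Pgam2 stood at 0.33 and −0.17 (control −0.16 and 0.16) and Pygm at −0.29 and −0.06 (control 0.14 and −0.14). Eno3 stood at 0.12 and 0.04 (control −0.11 and 0.11), Ckmt2 at 0.04 and −0.11 (control 0.01 and −0.01) and Fabp3 at −0.04 and 0.04 (control −0.05 and 0.05). These values are a description and were not tested.

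Markers of other tissues were read beside these values. Over all tested probe sets, 21.1% were higher and 23.6% lower on both transgenic arrays, and the counts below stand against these shares. Of 6 heart markers 3, Myl7, Tnnt2 and Mybpc3, were above the filter, and Myh6, Nppa and Tnni3 were below it. Tnnt2, the 1 that was higher on both transgenic arrays, gave 47.8 and 51.7 in control and 111 and 64.1 in transgenic arrays. The summed signal of the heart list was 238 and 229 in control and 294 and 204 in transgenic arrays, with 1 of 6 higher and 3 of 6 lower on both. For 3 red blood cell markers with a probe set, the sum was 113 and 136 in control and 196 and 274 in transgenic arrays, with 3 of 3 higher on both and the hemoglobin gene Hba-a1 below the filter. The control mean of Slc4a1, a red cell anion exchanger, was below it too. Smooth muscle markers summed to 7377 and 7602 in control and 8378 and 8669 in transgenic arrays, with 2 of 5 higher on both. Of 3 fat cell markers with a probe set, Fabp4 was above the filter and Adipoq and Lep were below it. They summed to 181 and 195 in control and 332 and 259 in transgenic arrays, with 2 of 3 higher on both. The part of these tissues in the changes of the supply genes was not tested.

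Markers of the labelled tissue were mostly dim. Of 6 rod markers with a probe set 2, Sag and Rom1, were above the filter, and Gnat1, Pde6b, Nrl and Prph2 were below it. The rod list summed to 265 and 281 in control and 286 and 197 in transgenic arrays, with 3 of 6 lower on both. All 3 corneal epithelium markers were above the filter and summed to between 31456 and 35988 on the 4 arrays, with 2 of 3 higher on both transgenic arrays. The trimmed mean signal was 150 on each array. The ratio of 3′ to 5′ signal, a measure of RNA integrity, lay between 1.14 and 1.22 for Actb and between 0.66 and 0.69 for Gapdh. The poly-A spike-in controls had a median change of 0.24 over 27 probe sets, with 18 higher on both transgenic arrays. Their part in the changes given here was not tested.

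The genes with profiles most like that of Mb over the 4 arrays were named by distance. Likeness was the Euclidean distance between log2 profiles, each taken relative to its own control mean, over 12715 other tested genes. Rgr, an opsin of the retinal pigment epithelium, was nearest at a distance of 0.10, then Pon1, the paraoxonase gene, at 0.12 and Myl1 at 0.15. The next 3, Nmur2, Ccl12 and Slc8a3, lay between 0.27 and 0.28. Their control means were below the filter, so they could be compared only because they were high on the transgenic arrays. Nearest to the median profile of the 7 tested supply genes were Pcdh20, Timm9, Crip1, Ndufa1, Mamdc2 and Myl2, at distances between 0.03 and 0.04. With 4 arrays in 2 groups, these distances are a description and were not tested.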

How the data were processed

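The authors deposited linear signal intensity for 45101 probe sets on each of 4 one-colour oligonucleotide arrays. How the scans became signals is not given in the sources used here, and only 4 arrays limit the precision. Symbols came from the platform annotation: 34958 probe sets had 1, 932 several and 9211 none. No symbol of the 9 genes changed when updated through its gene identifier. The 64 array controls were left out of the tests.

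Intensities were used as deposited and transformed as log2(signal + 16). Control arrays were averaged. Probe sets above the 40th percentile of mean log2 value were fitted with limma 3.58.1 in R 4.3.3 (empirical Bayes with intensity trend, 1 residual and 10.3 prior degrees of freedom, Benjamini-Hochberg over 27022 probe sets). The spread of the 1 control sample was taken to equal that of the transgenic samples. The script was tested on simulated data. Each gene was represented by its brightest probe set. Named are all probe sets of the 9 genes, their paralogs, list genes past the threshold, the 4 of each list that changed most in absolute value, and the 6 nearest profiles. Myh4, the only skeletal muscle marker lower on both transgenic arrays, was named after its values were seen, as were Aldoa, Slc25a4, Myl3, Myom2 and Cav3. The genes and lists were chosen with earlier results of these data known. List genes without a probe set of their own were not used. Alternatives covered scaling, pseudocount, filter, control arrays, replicate block, moderation and left-out arrays.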

Additional observations from a re-analysis of the deposited data

How the results depend on the processing

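The change of Mb was recomputed in 8 of 13 alternatives and lay between 0.97 and 1.15. The other 5 leave it at 1.06 by construction and bear on its p alone. Its call held in 9 of the 11 alternatives with a test. Of the probe sets of these genes, 0 passed in limma without the filter, where all 13 were tested, and 0 without the intensity trend. In both settings 0 of all probe sets passed, against 2181 and 1059 at an unadjusted p under 0.05. Over all probe sets, 39 passed after quantile normalization, 177 after median centring (142 higher and 35 lower) and 135 with 4 separate arrays, and between 14 (without control replicate 1) and 33 (without control replicate 2) with 1 control array left out. With 4 separate arrays and the replicate number as a replicate block, 1740 passed, among them 5 of these genes' probe sets. The correlation of the deviations of same-numbered arrays was 0.10 over 2 groups of 2, and the control arrays are technical replicates. With so few arrays this cannot decide whether same-numbered arrays shared more than a number. The median change of the supply genes was 0.43 after quantile normalization, 0.49 after median centring, 0.38 at a pseudocount of 64, 0.38 without the filter over 9 genes, 0.35 when the tested probe sets of each gene were averaged, and 0.35 to 0.57 with 1 array left out. The dim Ckm probe set ran from −0.58 to 0.13 with 1 array left out, and turned to 0.13 without control replicate 1. The cause of these shifts was not tested. Leaving out a transgenic array left no residual degrees of freedom and so no test.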
